A study of Rattus norvegicus with 3 samples.

Results

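The Bcl2 family genes described here are those whose symbol stands alone beside a probe set in the platform annotation, out of 9 symbols listed: Bcl2, Bcl2l1, Bcl2l11, Mcl1, Bax, Bak1, Bad, Bid and Bmf. This rule used no measured value, but the symbols were listed with earlier results of these data known. It gave 14 probe sets of 8 genes, out of 31099 probe sets and 14218 named genes on the array. Bax has 1 probe set there, which is also assigned to another gene, so Bax was not analysed here.

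The rats were immature Sprague-Dawley females of 24 to 25 days. They had been given pregnant mare's serum gonadotropin, which drives follicles towards the preovulatory stage, and 48 h later their ovaries were taken and granulosa cells were cultured. There were 3 groups. In the first, cells were infected with an adenovirus carrying NFIL3, a bZIP transcription factor, and then given forskolin and phorbol 12-myristate 13-acetate (Ad-NFIL3 with FSK/PMA). In the second, cells were infected with a virus carrying green fluorescent protein and given the same 2 agents (Ad-GFP with FSK/PMA). In the third, cells had the GFP virus and no FSK/PMA (Ad-GFP). All cells thus carried an adenovirus, at 50 pfu per cell, and all had been cultured after follicle puncture. Forskolin (10 uM) activates adenylyl cyclase and the phorbol ester (20 nM) activates protein kinase C, a pairing used in place of hCG, for 6 h from 24 h after infection. Each group had 1 Affymetrix rat array with RNA pooled from 3 experiments. No difference below therefore has a replicate, an error between cultures or a p-value.

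Proteins of the Bcl2 family decide whether the outer mitochondrial membrane stays closed. Bcl2, Bcl-xL (from Bcl2l1) and Mcl1 hold it closed, Bax and Bak1 form the pores that let cytochrome c out to activate caspases, and the BH3-only proteins Bim (from Bcl2l11), Bad, Bid and Bmf set the pore formers free or block the protectors. In the ovary, death of granulosa cells by this route accompanies follicular atresia, and the cells of follicles that go on to ovulate survive.

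Signals are MAS5 intensities, as the authors deposited them. Signals up to 126, which is the overall median signal, were treated as not measurable and set to that floor before taking log2. The brightest probe set stands for a gene, and a gene counts as measured in a comparison when either array is above the floor. A difference was counted when it reached 2-fold, which is 1 on the log2 scale. As a measure of technical error, the disagreement between paired probe sets of 1 gene gave a robust SD of 0.36 for a log2 difference between the FSK/PMA and Ad-GFP arrays (1895 genes) and of 0.24 between the Ad-NFIL3 and Ad-GFP arrays with FSK/PMA (1846 genes). Paired probe sets were read on the same arrays, so this technical SD leaves out any error that a whole array shares. It also leaves out any difference between cultures. It is therefore not a measure of how well an array would repeat. Signals of different probe sets are not compared with each other.

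Mcl1 and Bcl2l11 were higher with FSK/PMA and Bcl2l1 was lower, each by 2-fold or more, while Bak1, Bad and Bid differed by less than 1 technical SD. Thus a gene of a protector and a gene of a BH3-only protein were higher on the same array, and a second protector gene was lower there. With the NFIL3 virus, 0 of the 6 measured genes differed by 2-fold. The furthest apart were Bcl2l1 and Bid, at 1.80-fold and 1.54-fold higher. Bcl2 and Bmf stayed below the floor on all 3 arrays.

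**Figure D1:**
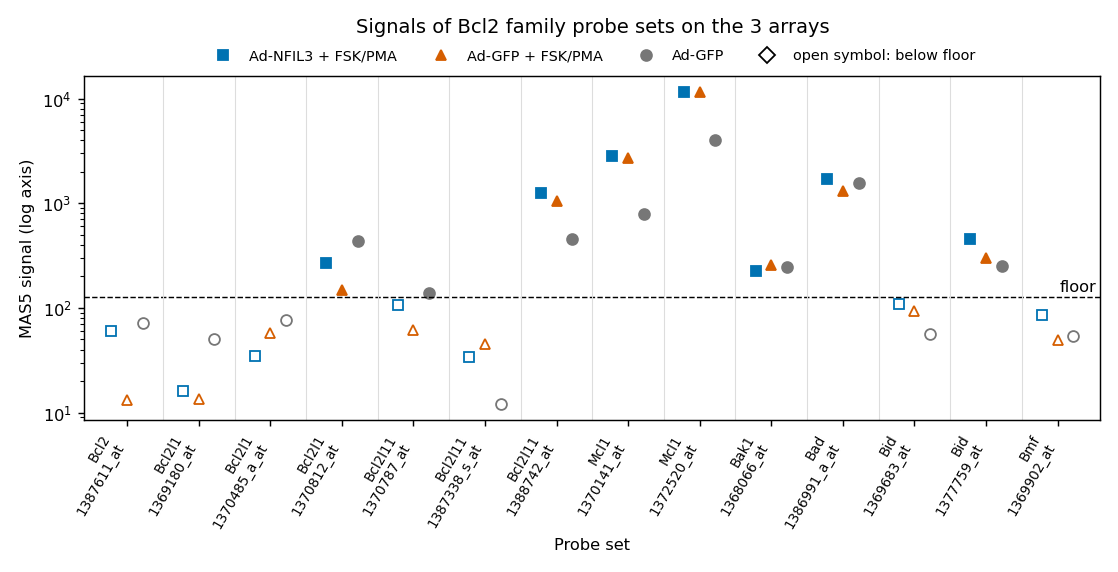
MAS5 signal (log axis) of each of the 14 Bcl2 family probe sets on the arrays of Ad-NFIL3 with FSK/PMA (squares), Ad-GFP with FSK/PMA (triangles) and Ad-GFP (circles), 1 array each. The dashed line is the floor of 126, and open symbols lie below it. Both Mcl1 probe sets have their 2 FSK/PMA symbols well above the Ad-GFP symbol. The only Bcl2l1 probe set with filled symbols has its lowest symbol on the Ad-GFP array with FSK/PMA, and 6 probe sets have only open symbols.

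The promoters of Mcl1, Bcl2l11 and Bcl2l1 are shown because these genes differed by 2-fold or more with FSK/PMA, and that of Bad because it holds a motif that Bcl2l11 also holds while its signal hardly differed. The sequences are those of RefSeq, assembly GRCr8, which lists 11 start sites for the 8 genes. Each runs 5′ to 3′ along the gene, from 250 bases before a start site to 50 bases from it. Bcl2l1 has 4 listed start sites, and the one furthest upstream is shown. Capitals mark matches to the motifs searched.

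Mcl1, chr2:185907918-185908217, plus strand: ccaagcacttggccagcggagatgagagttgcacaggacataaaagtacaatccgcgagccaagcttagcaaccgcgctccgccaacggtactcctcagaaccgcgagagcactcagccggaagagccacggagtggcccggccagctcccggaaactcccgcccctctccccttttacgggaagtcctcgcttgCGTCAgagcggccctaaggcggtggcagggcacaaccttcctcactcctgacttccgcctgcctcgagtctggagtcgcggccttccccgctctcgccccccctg
Bcl2l11, chr3:135819792-135820091, plus strand: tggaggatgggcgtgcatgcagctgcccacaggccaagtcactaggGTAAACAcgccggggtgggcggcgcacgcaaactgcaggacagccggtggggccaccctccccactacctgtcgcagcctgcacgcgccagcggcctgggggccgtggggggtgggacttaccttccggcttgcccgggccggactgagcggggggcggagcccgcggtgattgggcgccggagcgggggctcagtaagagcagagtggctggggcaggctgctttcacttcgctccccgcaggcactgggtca
Bad, chr1:213562864-213563163, plus strand: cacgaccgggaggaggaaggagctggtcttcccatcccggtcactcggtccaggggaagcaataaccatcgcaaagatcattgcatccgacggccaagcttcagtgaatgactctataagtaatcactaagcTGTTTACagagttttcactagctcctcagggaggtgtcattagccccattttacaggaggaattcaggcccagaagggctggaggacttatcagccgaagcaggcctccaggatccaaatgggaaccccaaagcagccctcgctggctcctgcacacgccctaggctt
Bcl2l1, chr3:161764726-161765025, minus strand: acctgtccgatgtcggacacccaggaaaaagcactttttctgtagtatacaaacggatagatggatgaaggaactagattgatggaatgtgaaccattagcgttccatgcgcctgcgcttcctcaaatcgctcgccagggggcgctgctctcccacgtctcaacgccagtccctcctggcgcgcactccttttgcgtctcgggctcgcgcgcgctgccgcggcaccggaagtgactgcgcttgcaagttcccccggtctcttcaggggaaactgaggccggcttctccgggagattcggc

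The motifs, searched on both strands, were TGACGTCA (the cAMP response element, CRE) and its short form TGACG, which the full form contains, TTACGTAA and TTATGTAA (sites of the kind NFIL3 binds), GTAAACA (the forkhead site) and TGANTCA (AP-1). The Mcl1 promoter holds the short CRE on its minus strand, with its first base 55 bases before the start site, and the Bmf promoter holds it on the plus strand, 27 bases before. The short form is in 21.2% of all 33469 promoters of this length. The forkhead motif lies 204 bases before the start site of Bcl2l11, on the plus strand, and 118 bases before that of Bad, on the minus strand. It is in 3.78% of all promoters. The full CRE, the NFIL3 sites and AP-1 match none of the 11 Bcl2 family windows. They are in 1.83% (CRE), 0.120% and 0.893% (the NFIL3 sites) and 7.33% (AP-1) of all promoters. Letters that match are not evidence of a bound site, and their absence says only that they are not in this window.

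The response to the stimulus was read from the Ad-GFP array with FSK/PMA and the Ad-GFP array without it. Among the protectors, Mcl1, a short-lived protein that holds Bak1 and Bim, had the brighter of its 2 probe sets at 11539 with FSK/PMA and 4010 in Ad-GFP, 2.88-fold higher (log2 difference 1.52, or 4.29 technical SDs). Its second probe set read 2702 with FSK/PMA and 797 in Ad-GFP, 3.39-fold higher (log2 difference 1.76). Both Mcl1 probe sets were thus higher with FSK/PMA, by more than 4 technical SDs. Of all measured genes, 7.53% had a larger difference in either direction than the brighter Mcl1 probe set, 6.93% than Bcl2l1 and 13.4% than Bcl2l11.

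Bcl2l1, which encodes Bcl-xL and, by alternative splicing, the death-promoting Bcl-xS, differed the other way. Its only probe set above the floor read 148 with FSK/PMA and 439 in Ad-GFP, 2.97-fold lower (log2 difference -1.57, or 4.42 technical SDs). The signal with FSK/PMA lay just above the floor of 126, where MAS5 signals are noisy. Both other Bcl2l1 probe sets were below the floor on every array, with signals from 13.4 to 77.0, so neither can be set beside the measured one. Which splice form the signal came from was not analysed here. The third protector gene, Bcl2, had 1 probe set, at 13.1 with FSK/PMA and 71.0 in Ad-GFP, both below the floor.

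Of the BH3-only genes, Bcl2l11, whose product Bim binds every protector of the family, had its brightest probe set at 1042 with FSK/PMA and 458 in Ad-GFP, 2.28-fold higher (log2 difference 1.19, or 3.34 technical SDs). A second probe set read 61.6 with FSK/PMA and 139 in Ad-GFP, at least 1.10-fold lower, with its 1 signal above the floor close to it. The third was below the floor on all arrays and cannot be read. With the mean of measured probe sets in place of the brightest, the log2 difference of Bcl2l11 was 0.52 and no longer reached 2-fold; with a floor at the 75th percentile it was a bound of 0.93. Bim is made from several spliced transcripts, and which of them each probe set reads was not analysed here.

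Bad, a BH3-only protein that phosphorylation keeps bound to 14-3-3 proteins, read 1323 with FSK/PMA and 1567 in Ad-GFP (log2 difference -0.24). Bid, which caspase 8 cleaves to link death receptors to mitochondria, read 298 with FSK/PMA and 253 in Ad-GFP (log2 difference 0.24). Both differences are 0.69 technical SDs or smaller. Bak1, the pore former, read 258 with FSK/PMA and 245 in Ad-GFP (log2 difference 0.08). Bmf, which senses detachment from the matrix and damage to the cytoskeleton, read 49.9 with FSK/PMA and 54.3 in Ad-GFP, both under the floor.

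Of the 8 genes, 6 were above the floor in this comparison, of which 2 were at least 2-fold higher and 1 at least 2-fold lower. The same call was made for 7.44% (higher) and 11.4% (lower) of all 9395 measured genes. The median log2 difference of the 6 genes was 0.16, and that of all measured genes was -0.10. With arrays scaled to the same median instead, the median of all genes was 0.03, 856 genes were higher and 852 lower in place of 699 and 1072, and the 3 genes past 2-fold were past it still.

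**Figure D2:**
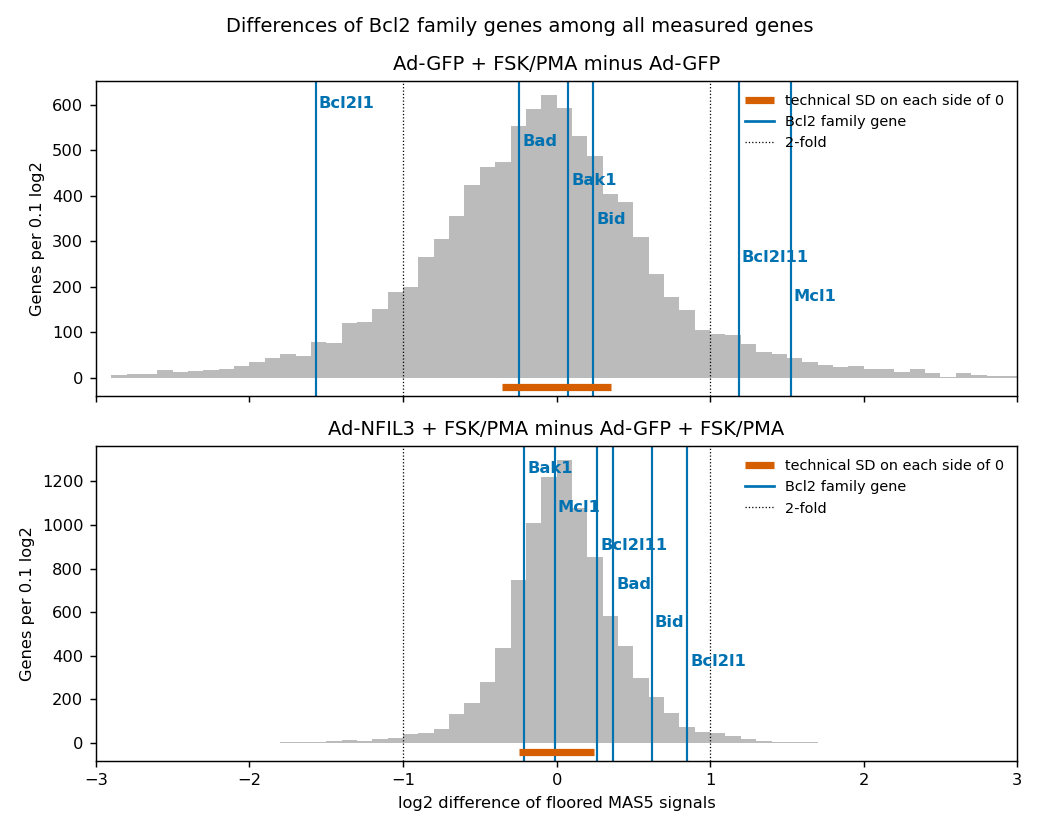
Histograms of the log2 difference (x axis) over all measured genes (y axis, genes per 0.1 log2), for Ad-GFP with FSK/PMA minus Ad-GFP (top) and Ad-NFIL3 with FSK/PMA minus Ad-GFP with FSK/PMA (bottom). Blue lines mark the 6 measured Bcl2 family genes, dotted lines mark 2-fold, and the orange bar spans 1 technical SD on each side of 0. In the top panel, from which 77 genes beyond 3 in either direction are left out, Bcl2l1, Bcl2l11 and Mcl1 lie outside the dotted lines. In the bottom panel all 6 lie inside them.

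The effect of NFIL3 overexpression in stimulated cells was read from the Ad-NFIL3 and Ad-GFP arrays with FSK/PMA. Nfil3 itself read 5882 on the Ad-NFIL3 array and 1321 on the Ad-GFP array with FSK/PMA, 4.45-fold higher, so the array labelled Ad-NFIL3 had the higher signal; whether its probe set lies within the viral insert was not analysed here. The FSK/PMA and NFIL3 comparisons share the Ad-GFP array with FSK/PMA. An error on that array enters both with opposite sign, so the 2 differences of a gene are not independent of each other.

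Bcl2l1 read 267 with NFIL3 and FSK/PMA, 148 with GFP and FSK/PMA, and 439 with GFP alone. It was 1.80-fold higher with NFIL3 than with GFP under FSK/PMA (log2 difference 0.85, or 3.50 technical SDs), and 3.81% of measured genes had a larger difference in either direction. The Ad-NFIL3 array thus lay between the other 2, and each neighbouring step in that order exceeded 2 technical SDs. The step between the Ad-GFP and Ad-NFIL3 arrays did so narrowly, at 0.72. For these 2 arrays the technical SD was 0.34, and 2 of them make 0.68. The Ad-GFP array with FSK/PMA, where Bcl2l1 was lowest, also had the lowest median signal over all probe sets, at 115, against 136 on the Ad-NFIL3 array and 127 on the Ad-GFP array. Its 3′ to 5′ ratio of the hexokinase control was 5.04, against 2.98 on the Ad-NFIL3 array and 3.21 on the Ad-GFP array. The same ratio of the GAPDH control did not stand out, at 1.15 against 1.14 on the Ad-NFIL3 array and 1.28 on the Ad-GFP array. The part of these array properties in the Bcl2l1 differences was not tested. With arrays scaled to the same median the log2 differences of Bcl2l1 were -1.43 with FSK/PMA and 0.61 with NFIL3.

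Mcl1 read 11451 on the Ad-NFIL3 array and 11539 on the Ad-GFP array with FSK/PMA (log2 difference -0.01), and its second probe set read 2798 and 2702 on the same arrays (log2 difference 0.05). Both differences are 0.21 technical SDs or smaller, so the Mcl1 level with FSK/PMA was not measurably different with NFIL3. Bcl2l11 read 1253 with NFIL3 and 1042 with GFP under FSK/PMA (log2 difference 0.27, or 1.09 technical SDs). For Mcl1 and Bcl2l11 the arrays with FSK/PMA were therefore neighbours that did not differ by more than 2 technical SDs, and the lower of them exceeded the Ad-GFP array by more than that.

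Bid was highest with NFIL3, at 459 against 298 in Ad-GFP with FSK/PMA (log2 difference 0.62, or 2.55 technical SDs). With arrays scaled to the same median this difference was 0.38, under 2 technical SDs. Its levels with FSK/PMA and in Ad-GFP did not differ by more than 2 technical SDs. The second Bid probe set lay below the floor throughout, at 109 with NFIL3, 94.1 with FSK/PMA and 56.4 in Ad-GFP, and cannot be set beside the first. Bad read 1709 with NFIL3 and 1323 with GFP (log2 difference 0.37), and Bak1 read 223 with NFIL3 and 258 with GFP (log2 difference -0.21). For Bad and Bak1, no neighbouring arrays in the order of levels differed by more than 2 technical SDs. Bcl2 was below the floor with NFIL3, at 59.6, and so was Bmf, at 86.1.

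At 2-fold, 0 of the 6 measured genes were higher and 0 were lower with NFIL3, where 1.34% of all 9397 measured genes were higher and 0.958% lower. Their median log2 difference was 0.32, beside 0.03 for all measured genes. Scaling the arrays to the same median moved the median of all genes to -0.20 and that of the 6 genes to 0.08. It also turned the split of all differing genes, which was 126 higher and 90 lower, to 48 higher and 190 lower; quantile normalization gave 91 higher and 112 lower.

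As deposited and on the brightest probe sets, Bcl2l1 had the largest difference of the Bcl2 family genes in both comparisons, so genes of like pattern were sought for it. With FSK/PMA its lead over Mcl1 was small (-1.57 beside 1.52), and Mcl1 was ahead with arrays scaled to the same median (1.66 beside -1.43), quantile normalization, the mean of probe sets and no floor. Likeness was the Euclidean distance over the 2 log2 differences, that is over 3 arrays, among 6284 other genes above the floor on all arrays and at 4 times the floor on at least 1. The nearest were Tef, at a distance of 0.10, St6gal1, at 0.11, and Gdpd1, at 0.12. Tef, a PAR bZIP transcription factor, read 442 with NFIL3, 262 with FSK/PMA and 791 in Ad-GFP. Its log2 differences of -1.59 with FSK/PMA and 0.76 with NFIL3 stand beside -1.57 and 0.85 for Bcl2l1. St6gal1, a sialyltransferase gene, had log2 differences of -1.68 with FSK/PMA and 0.87 with NFIL3. Those of Gdpd1 were -1.69 and 0.86. Dimmer probe sets of Tef and Gdpd1 were above the floor in Ad-GFP only, with FSK/PMA bounds of -0.97 and -0.48. Neither can be read for the NFIL3 comparison, so the likeness rests on the brightest probe sets. In all, 21 of the 6284 genes lay within 0.24 of Bcl2l1, and the array that the 2 differences share enters each of these patterns.

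Other genes of cell death were read from 4 lists, whose counts stand beside the shares of all measured genes given above (7.44% higher and 11.4% lower with FSK/PMA, 1.34% and 0.958% with NFIL3) and the medians of all genes (-0.10 and 0.03). Each list had 1 gene at least 2-fold lower with FSK/PMA, which for lists of this size is near that share. Of the other Bcl2 family genes, 8 of 11 on the array were measured in the FSK/PMA comparison, with 0 at least 2-fold higher and 1 lower, and a median log2 difference of -0.60. That 1 gene was Bok, a pore former related to Bax and Bak1, which read 1358 with FSK/PMA and 3998 in Ad-GFP, 2.94-fold lower. A second, dimmer Bok probe set differed by -1.25 on the log2 scale. Bcl2l2, which encodes the protector Bcl-w, read 653 with FSK/PMA and 1008 in Ad-GFP (log2 difference -0.63). Bcl2l12 differed by the same amount (-0.63), and Bik, a BH3-only gene, was below the floor with FSK/PMA, at 10.3 against 226 in Ad-GFP, at least 1.80-fold lower. With NFIL3, 7 of these genes were measured, with 0 past 2-fold and a median of 0.25. Bnip3, a mitochondrial gene of mitophagy, read 2616 with NFIL3 and 1716 with GFP (log2 difference 0.61). Both Bok and Bbc3, which encodes the BH3-only protein Puma, differed by 0.46, and Bcl2l14 by at least 0.25.

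Of 15 genes of caspases, the apoptosome and their inhibitors on the array, 13 were measured with FSK/PMA, with 0 at least 2-fold higher and 1 lower, and a median of -0.25. Casp6, an executioner caspase, read 581 with FSK/PMA and 1462 in Ad-GFP, 2.52-fold lower. Htra2, a mitochondrial protease that blocks inhibitors of apoptosis, differed by -0.90 on the log2 scale. Xiap, the direct caspase inhibitor, differed by -0.67 and its second probe set by -0.64. Casp8, the death receptor caspase, differed by -0.64 and its second probe set by -0.60. With NFIL3, Htra2 read 510 against 313 with GFP (log2 difference 0.71). Xiap read 649 with NFIL3 and 439 with GFP (log2 difference 0.56), and its second probe set differed by 0.88. Casp9, the apoptosome caspase, differed by 0.47, while its second probe set differed by 0.02. The brightest Casp8 probe set differed by 0.11, but its second read 401 with NFIL3 and 230 with GFP (log2 difference 0.80). Aifm1, a mitochondrial flavoprotein, differed by -0.49. In the NFIL3 comparison 0 of 13 genes passed 2-fold, and their median was 0.11; it lay below 0, at -0.13, with arrays scaled to the same median.

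Among death receptor genes, 6 of 9 were measured with FSK/PMA, with 0 higher and 1 lower past 2-fold and a median of -0.35. Tradd, the adaptor of the tumour necrosis factor receptor, read 171 with FSK/PMA and 419 in Ad-GFP, 2.45-fold lower. Fas was at least 1.53-fold lower, at 25.1 with FSK/PMA and 192 in Ad-GFP. Fadd, the adaptor of Fas, differed by -0.38. Ripk1 differed by -0.32, while a second, dimmer Ripk1 probe set differed by 0.58. With NFIL3, 5 genes were measured, 0 passed 2-fold and the median was 0.36; it was 0.06 with arrays scaled to the same median and 0.08 with a floor at the 75th percentile. Tradd read 307 with NFIL3 and 171 with GFP (log2 difference 0.84). Cflar, which encodes the Casp8 inhibitor c-FLIP, differed by 0.48, Tnfrsf1a by 0.36 and Fadd by 0.24.

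The last list held binding partners and regulators of Bcl2 family proteins, of which 13 of 14 were measured in each comparison. With FSK/PMA 0 were higher and 1 was lower past 2-fold, with a median of -0.33. Foxo1, a forkhead factor known to activate Bcl2l11 in several cell types, read 2106 with FSK/PMA and 11758 in Ad-GFP, 5.58-fold lower. A dimmer Foxo1 probe set was below the floor with FSK/PMA, with a bound of -2.40 on the log2 scale. Foxo3, its paralogue, differed by -0.65. Foxo1 was thus lower on the array where the brightest Bcl2l11 probe set was higher. A link between these levels was not tested. Akt1, a kinase that phosphorylates Bad, differed by -0.58, and by 0.02 on its second probe set. Ywhaz, a 14-3-3 protein gene, differed by 0.55. With NFIL3, 0 of 13 passed 2-fold and the median was -0.08. Pim3, a survival kinase gene, read 586 with NFIL3 and 948 with GFP (log2 difference -0.69), and Ddit3, a stress-induced transcription factor gene, differed by -0.51. Foxo1 differed by -0.47 and Foxo3 by 0.33.

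**Figure D3:**
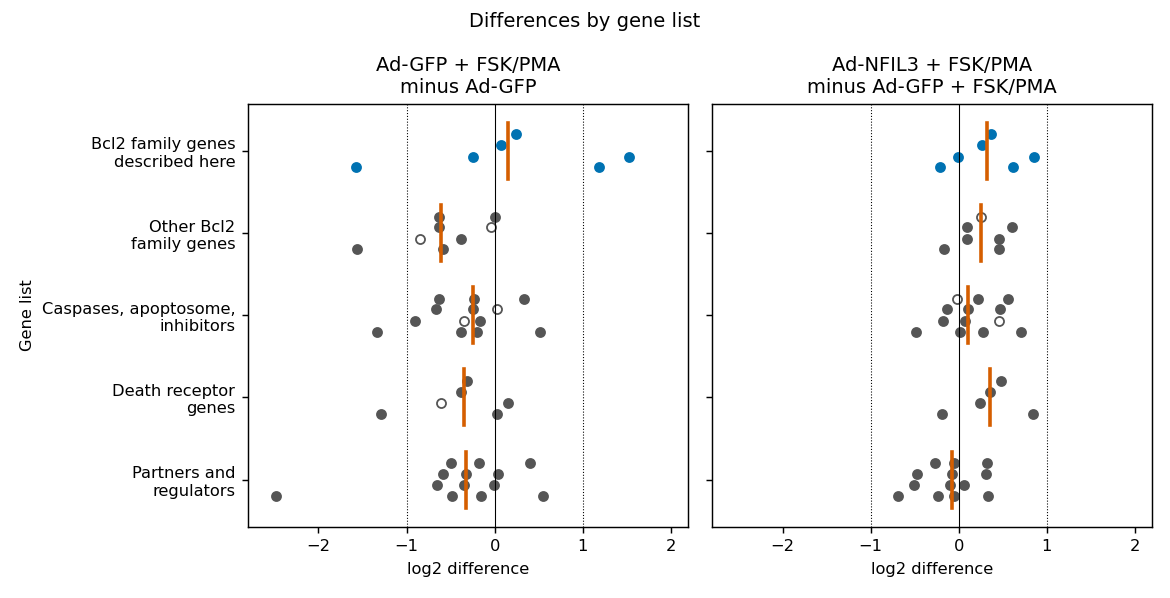
The log2 difference (x axis) of each measured gene of 5 lists (rows), for Ad-GFP with FSK/PMA minus Ad-GFP (left) and Ad-NFIL3 with FSK/PMA minus Ad-GFP with FSK/PMA (right). Each point is 1 gene, open where 1 array was below the floor and the value is a bound, orange bars are medians, and dotted lines mark 2-fold. On the left the 4 lists below the top row have their medians left of 0, from -0.60 to -0.25, and on the right 0 points lie beyond the dotted lines.

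The labelled cell type was checked on its markers. Of 9 granulosa markers on the array, 8 were above the floor with NFIL3, 8 with FSK/PMA alone and 7 in Ad-GFP, with Inha and Foxl2 among them and Esr2 below it on all 3. Their summed signal, most of it from Inha, Inhba and Cyp11a1, was 49897 with NFIL3, 77959 with FSK/PMA and 80432 in Ad-GFP. With FSK/PMA, 2 of 8 measured granulosa markers were at least 2-fold higher (Cyp19a1 and Cyp11a1) and 4 were at least 2-fold lower (Foxl2, Lhcgr, Amhr2 and Nr5a2). With NFIL3, 0 of 8 were higher and 3 were lower (Inhba, Cyp19a1 and Lhcgr). The sum of 6 leukocyte markers was 2205, 2102 and 1091 on the same arrays, most of it from Cd14, with Ptprc below the floor. Cd14, Cd68 and Cd74 were above it on all 3 arrays, and Cd14 was 2.46-fold higher with FSK/PMA than in Ad-GFP. The sum of 7 theca and stroma markers was 1299, 850 and 1046, with Cyp17a1 below the floor and Col3a1 above it on all arrays. Dcn, decorin, was the 1 gene of this list past 2-fold with NFIL3, at 481 against 196 with GFP under FSK/PMA, 2.45-fold higher. The sum of 4 endothelial markers was 421, 418 and 345, with Pecam1 below the floor. Kdr was above it on all 3 arrays, at 138, 180 and 190, and Egfl7 on both arrays with FSK/PMA. Of 5 oocyte markers only Zp2 was measured, and the list's sum was 430, 575 and 967. Red cell genes summed to 20385, 23815 and 32227. The part of other cells in the Bcl2 family differences was not tested. In pooled cultures, fewer cells of a type and less RNA per cell cannot be told apart.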

How the data were processed

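Total RNA (5 ug) of cells pooled from 3 experiments was hybridised to 1 Affymetrix rat array per group; per the labels, virus was removed after 2 h. The deposited values are MAS5 intensity signals on a linear scale, per the submitters' processing notes, with no version stated there. All 3 deposited columns had a 2% trimmed mean of 500, so arrays had been scaled to a common value. Nothing else was rescaled.

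The members and lists were chosen with earlier results of these data known. The platform annotation named the probe sets, with 1 gene for 20832, several for 436 and none for 9831, and symbols were updated through the RefSeq table of GRCr8 (20764 matched). Of 95 entries of the lists and marker lists, 83 were on the array, 1 under a newer symbol; the others were not analysed here. Named are all Bcl2 family genes, up to 4 genes of each list with the largest difference per comparison, the 3 genes nearest in pattern, Nfil3 and cell markers. The floor was the median (percentile 50), and folds against a value below it are bounds. The technical SD came from genes with exactly 2 measured probe sets. With 1 array per group no test was run; precision is limited by the number of arrays. The 7 alternatives were other floors, no floor, other scalings, the mean of probe sets, and leaving out probe sets that can bind several transcripts. The code (Python 3.11.15, pandas 2.3.3, numpy 2.4.6) was tested on simulated data. Protein sequences were not analysed here.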

Additional observations from a re-analysis of the deposited data

How the results depend on the processing

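Under the 7 alternatives, 36 of 76 values of single Bcl2 family genes could not differ from those reported, since the change does not touch them, and say nothing of their stability. Of the other 40, all but 1 moved by less than the technical SD, which a shift of all genes by another scaling also stays under. The exception was Bcl2l11 with the mean of measured probe sets, at 0.52 with FSK/PMA, and with a floor at the 75th percentile Bcl2l11 also lost its 2-fold call (0.93). Over the settings, the FSK/PMA difference of Mcl1 ran from 1.37 to 1.66 and that of Bcl2l1 from -1.57 to -1.36, and the NFIL3 difference of Bcl2l1 ran from 0.61 to 0.85. The count of members at least 2-fold higher with FSK/PMA was 1 in place of 2 with the mean of probe sets. With a floor at the 75th percentile (547), which leaves 3 genes measured and Bcl2l1 out, it was 1, the count of those lower was 0, and the median was 0.93. With no floor, log2(signal + 16), 2 were lower with FSK/PMA and 1 was higher with NFIL3; the added gene was Bcl2 both times, with differences of -1.58 and 1.38 between signals that all lie under the floor of 126. The FSK/PMA median of the members also lay at -0.02 with a floor at the 25th percentile (46.2) and at -0.01 with no floor. Of 168 values of the 4 other lists, 16 moved by more than the technical SD or, for counts, by over 1.5 times. The count of all genes past 2-fold with NFIL3 was 126 higher and 90 lower, against 545 and 236 with a floor at the 25th percentile, 36 and 48 with one at the 75th, and 902 and 552 with no floor. With FSK/PMA, in place of 699 and 1072, these 3 settings gave 968 and 1454, 421 and 402, and 1315 and 1750. No paired analysis was possible because each group has 1 array.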
